A study of Mus musculus with 10 samples.

Results

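miR-210 is 1 of 285 mature miRNAs in a table of small RNA sequencing from mouse liver, and its row was taken by name in all 10 libraries. The livers compared came from mice labelled TSC1 mutant, described as a liver knockout (L-Tsc1KO), and from littermate controls. There were 5 libraries of each genotype, all from animals of 14 weeks with free access to food and water. The Cre line behind the deletion is not given in the sources used here, Tsc1 messenger RNA was not analysed here, and nothing in the labels says that each library came from a different mouse, so p-values measure the spread between these samples. Whole liver was homogenised, so fewer cells of a type and less miRNA per cell cannot be told apart.

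miR-210 is the miRNA most widely linked to low oxygen. Hypoxia-inducible factor HIF1A switches on its gene in many cell types, and the miRNA in turn represses mRNAs of mitochondrial proteins such as the iron-sulfur cluster scaffold ISCU. TSC1 belongs to the complex that restrains mTORC1, and mTORC1 activity is known to raise HIF1A protein. Neither oxygen supply nor HIF1A protein was analysed here.

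The gene has 1 hairpin, at chr7:141221384-141221493 on the minus strand of GRCm38.p6. Its sequences, from RefSeq in that build, are shown with bases 2 to 8 of each mature arm (the seed, which pairs with target mRNAs) in capitals, and with the whole 3p arm in capitals in the hairpin. miR-218-5p is added because its seed is the closest to that of miR-210-3p among miRNAs named in the table, with 1 of 7 bases different.
miR-210-3p: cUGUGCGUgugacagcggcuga
miR-210-5p: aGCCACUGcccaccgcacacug
miR-210 hairpin: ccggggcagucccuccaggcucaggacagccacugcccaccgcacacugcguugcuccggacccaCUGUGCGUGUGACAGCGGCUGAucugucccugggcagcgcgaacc
miR-218-5p: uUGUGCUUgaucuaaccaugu
Of 1679 mature names in the RefSeq sequence table, 0 others carried the seed of either arm of miR-210. The row in the deposited table names no arm, and whether reads of the 5p arm were counted in it is not given in the sources used here. In the GENCODE M21 annotation of GRCm38 the hairpin lay in an intergenic stretch, with 0 other genes over it, and the nearest gene was Rassf7, 2726 bases away on the opposite strand. The hairpin is rich in G and C, at 69.1%, against a median of 49.7% over the 248 miRNAs with a hairpin sequence, and only 3 of them had a higher value.

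The libraries held 6228497 to 12129069 reads of the listed miRNAs, recovered as whole multiples of the value that 1 read had in each library. Tsc1 mutants averaged 9181816 ± 1759628 reads and controls 10109114 ± 2418319 (SD, n = 5 each; 2-sided exact permutation p = 0.484). Across all miRNAs limma called 37 at an adjusted p of 0.05, or 13% of those tested, of which 31 were higher in mutants (10.9%) and 6 lower (2.11%). The libraries numbered 1 of both genotypes stood apart from the other 4 of their group over many miRNAs. Results that rest on these libraries are therefore given with and without them. Control 2 differed in other ways, with summed biliary epithelial miRNAs at 36779 and striated muscle miRNAs at 5638 normalised reads, the highest of all libraries for both.

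miR-210 had 864, 317, 383, 374 and 354 normalised reads in Tsc1 mutants 1 to 5, against 555, 216, 153, 172 and 158 in controls 1 to 5. Normalised reads are the authors' read counts divided by 1 factor per library. Mutant 1 and control 1 were far above the rest of their groups, and control 1 exceeded mutants 2 to 5, so the groups overlapped. Controls 2 to 5 lay below every mutant. Over all miRNAs, 29, or 10.2%, had every mutant above every control, and miR-210 was not among them. With all libraries, miR-210 averaged 458 ± 228 normalised reads in Tsc1 mutants and 251 ± 172 in controls (SD, n = 5 each). The log2 fold change, on log2(value + 1), was 0.96 ± 0.39 (SE), with a 95% interval of 0.098 to 1.82, which corresponds to 1.94-fold and to 1.07- to 3.52-fold. This did not pass after correction over 285 miRNAs (limma, Benjamini-Hochberg adjusted p = 0.166). The unadjusted limma p was 0.0321, at rank 55 of the 64 miRNAs below 0.05. A 2-sided exact permutation test of the log2 values alone gave p = 0.0556, against a smallest possible value of 0.00794.

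**Figure D1:**
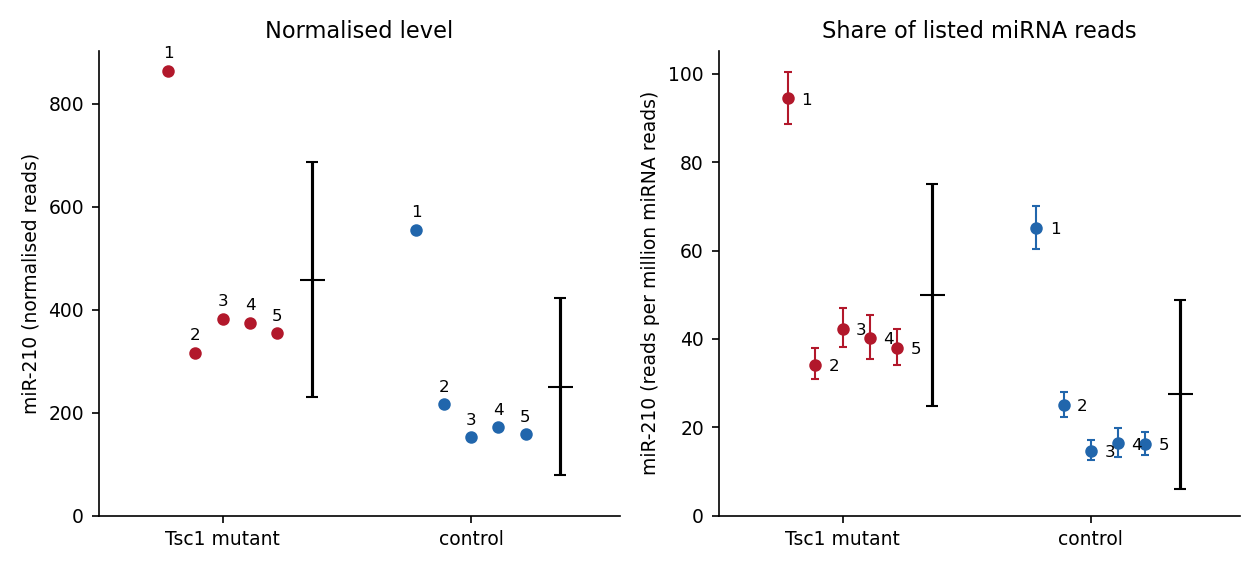
miR-210 in each library, by genotype, as normalised reads (left) and as a share of the listed miRNA reads in RPM (right). Points carry the replicate number, thin bars on the right are 95% exact binomial intervals, and black marks are the mean and SD of 5 libraries. The libraries numbered 1 are the highest of both groups, at 864 and 555 normalised reads, and among the rest the mutants lie at 317 to 383 and the controls at 153 to 216.

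Counting error was small beside these differences. The libraries held 261 to 994 reads of miR-210 in mutants and 102 to 695 in controls, for a counting error of 3.17 to 9.90% of the value. Shares were taken of the reads of the 285 listed miRNAs, in RPM (reads per 1000000 of these reads). On this measure miR-210 stood at 94.5, 34.2, 42.3, 40.2 and 38.0 in mutants 1 to 5. In controls 1 to 5 it stood at 65.1, 25.1, 14.8, 16.4 and 16.2 RPM. The lowest mutant share, in replicate 2, had a 95% exact binomial interval of 30.8 to 37.9 RPM, and the highest of controls 2 to 5, in replicate 2, one of 22.3 to 28.0. These intervals cover counting error only, since reads without molecular identifiers are not independent molecules. The mean share was 49.8 ± 25.1 RPM in mutants and 27.5 ± 21.4 in controls (SD, n = 5 each; 2-sided exact permutation p = 0.198). Without control 1 the shares differed by 31.7 RPM (exact permutation p = 0.0159).

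Without the libraries numbered 1, miR-210 was higher in the Tsc1 mutant libraries. Those left out were the highest of their genotypes for miR-210, and the omission was chosen with earlier results known. It does not replace the comparison over all 10 libraries, which did not pass (limma adjusted p = 0.166). miR-210 averaged 357 ± 29.4 normalised reads in mutants 2 to 5 and 175 ± 28.8 in controls 2 to 5 (SD, n = 4 each). Each of the 4 mutants was above each of the 4 controls. In these 8 libraries such an order, with mutants on top, was seen in 43 of 285 miRNAs, or 15.1%. Their log2 difference was 1.04 ± 0.15 (SE), with a 95% interval of 0.69 to 1.38, or 2.05-fold (1.62- to 2.61-fold). The limma adjusted p was 0.00139. In that fit limma called 46 miRNAs (16.1%), 35 higher (12.3%) and 11 lower (3.86%). The exact permutation p was 0.0286, the smallest that 4 against 4 libraries allow. Leaving out control 2 as well gave a log2 fold change of 1.14 and a limma adjusted p of 0.000441, with controls at 161 ± 9.79 normalised reads (SD, n = 3). That fit called 49 miRNAs (17.2%), 36 higher (12.6%) and 13 lower (4.56%). Leaving out control 1 alone was enough for the call, at 1.29 and a limma adjusted p of 0.00948, whereas leaving out mutant 1 alone gave 0.70 and 0.299. A term for the libraries numbered 1, fitted over all 10, gave 0.96 ± 0.14 (SE) on the log2 scale (limma adjusted p = 0.000541). That fit called 56 miRNAs (19.6%), 39 higher (13.7%) and 17 lower (5.96%).

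Of the 35 miRNAs higher without the libraries numbered 1, 6 were outside the Dlk1-Dio3 region, an imprinted cluster that holds 31 miRNAs of the table. These were miR-210, miR-802, miR-137, miR-29a, let-7g and miR-34a, named because they were few, after their values were seen. In that fit miR-210 had the smallest p of the 6 and ranked 17 among all miRNAs. Leaving out its own highest library of each genotype lowers its p, so this rank is a description only. Its rank by p over all 10 libraries was 55. With all 10 libraries only miR-802, miR-137 and miR-29a of the 6 passed. They were the 3 miRNAs outside the region among the 31 called higher in that fit.

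**Figure D2:**
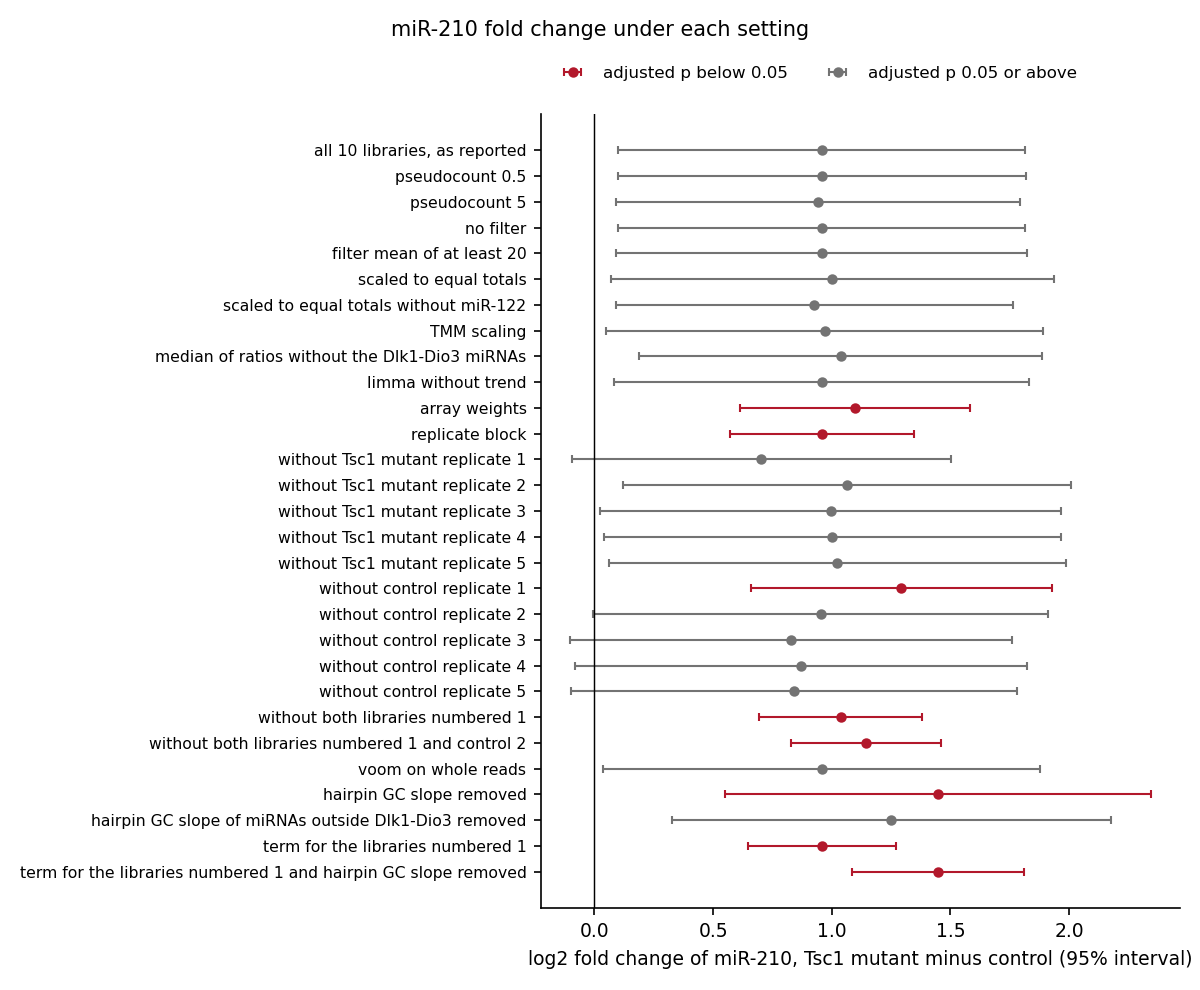
Log2 fold change of miR-210 (Tsc1 mutant minus control, x axis) with its 95% interval under each setting, 1 per line. Red points passed an adjusted p of 0.05 over all miRNAs in that fit. All values lie above 0, between 0.70 and 1.45, and the interval is narrow where the libraries numbered 1 are left out or have a term of their own.

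The libraries numbered 1 differed from their groups in a broad set of miRNAs, of which miR-210 was one. In mutant 1 it was 1.28 above the mean of the other mutants on the log2 scale, and in control 1 it was 1.68 above the mean of the other controls. In normalised reads that was 2.42 and 3.18 times the mean of the other 4 libraries. Of the 285 miRNAs, 18 had a deviation larger in size in both libraries, 7 of them upward and 11 downward. In all, 16 were more than 1 higher on the log2 scale in both and 20 more than 1 lower in both, while the median deviation over all miRNAs was -0.0018 in mutant 1 and -0.047 in control 1. miR-34a, a miRNA whose gene p53 activates, stood out in the same direction, at 2.07 and 3.81. miR-122, the most abundant hepatocyte miRNA, was lower in both, at -0.45 and -0.73, whereas miR-192 was at 0.069 and -0.47 and miR-194 at -0.030 and 0.099. Between these 2 libraries alone the mutant had 1.56 times the miR-210 level of the control, with no replicate.

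**Figure D3:**
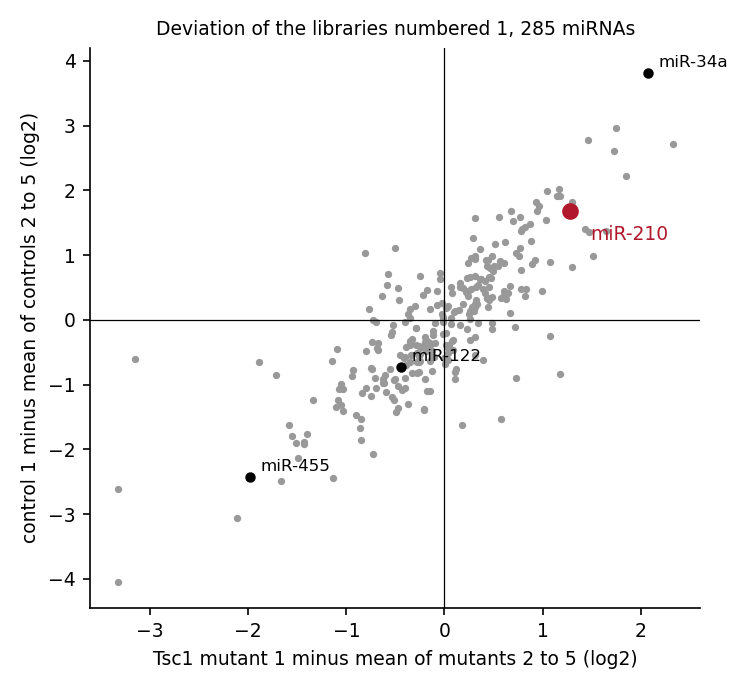
Deviation of Tsc1 mutant 1 from mutants 2 to 5 (x axis) and of control 1 from controls 2 to 5 (y axis), in log2 units, for 285 miRNAs (1 point each). miR-210 lies at 1.28 and 1.68, in the upper right with miR-34a at 2.07 and 3.81, while miR-122 and miR-455 are below 0 in both.

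The spread of miR-210 within genotypes was smaller without these libraries, which follows from leaving out the far highest value of each genotype. Its residual SD on the log2 scale was 0.68 with all libraries, where 63 miRNAs had a larger one, and 0.18 without the libraries numbered 1, where 215 did. The medians over all miRNAs were 0.44 and 0.31. By mean level miR-210 ranked 141 of 285, and its rank within a library ran from 107 to 146 in mutants and from 116 to 157 in controls. Its neighbours in mean level were miR-125b-2-3p, miR-130a and miR-223 just above and miR-195, miR-1191 and miR-215 just below. Their log2 fold changes lay between -0.46 for miR-223, a myeloid miRNA, and 0.15 for miR-1191. The smallest limma adjusted p among the 6 neighbours was 0.527, for miR-195.

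Marker miRNAs of hepatocytes and of other cell types were set beside these values. Of 30 marker rows, 0 passed between genotypes by limma with all libraries, against 13% of all miRNAs. That share includes the Dlk1-Dio3 region, outside which 3 miRNAs were called higher. An unadjusted p below 0.05 was found for 3 of the 30 rows and for 64 of all 285. Without the libraries numbered 1, 0 of 30 passed, against 16.1%. That share too includes the Dlk1-Dio3 region, outside which 6 miRNAs were called higher. No marker row (0 of 30) was at 0 in all libraries. The 6 leukocyte rows summed to 16364 to 22201 normalised reads in mutants and 17134 to 28912 in controls. Both maxima were the libraries numbered 1, and 4 of the 6 rows were above the mean of the other 4 libraries of the group in both. The 3 erythroid rows summed to 3431 to 6533 in mutants and 3886 to 5924 in controls, with 1 row above and 1 below the mean of the other 4 in both libraries numbered 1. The 5 stellate and smooth muscle rows summed to 131317 to 243057 in mutants and 164279 to 363788 in controls. Of these rows, 4 were above and 1 was below the mean of the other 4 libraries in both libraries numbered 1. Mutant 1 had the highest mutant sum, while control 1, at 234055, did not have the highest control sum. The 3 hepatocyte rows summed to 3026124 to 3998073 in mutants and 2817777 to 4979931 in controls, with the lowest value of each genotype in the library numbered 1 and 1 of the 3 rows, miR-122, lower in both. For miR-122 alone the levels were 2700000 ± 444090 in mutants and 3174500 ± 763060 in controls (SD, n = 5 each; limma adjusted p = 0.608). Endothelial rows summed to 114892 to 160253 in mutants and 113036 to 160119 in controls, and neural rows to 56.6 to 93.0 in mutants and 66.4 to 175 in controls. The libraries numbered 1 held the lowest endothelial and the highest neural sum of both genotypes. Biliary epithelial rows summed to 3165 to 7055 in mutants and 5035 to 36779 in controls, and striated muscle rows to 151 to 919 in mutants and 268 to 5638 in controls. In both libraries numbered 1, 5 of 6 biliary epithelial and 2 of 3 striated muscle rows were below the mean of the other 4. None (0) was above it in both. Mutant 1 had the lowest biliary epithelial sum of the mutants, while control 1, at 5636, did not have the lowest of the controls. The part of these cell types in the level of miR-210 was not tested.

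Hairpin GC content moved with genotype, which touches a miRNA as rich in G and C as miR-210. The slope of a library's deviations on hairpin GC was -0.160 to -0.0791 in mutants and 0.0847 to 0.182 in controls, in log2 units per 10 percentage points. With this slope removed, over the 248 miRNAs with a hairpin, the log2 fold change of miR-210 was 1.45, with a limma adjusted p of 0.0299. Estimated on miRNAs outside the Dlk1-Dio3 region, the slope was -0.0993 to -0.0077 in mutants and -0.0027 to 0.126 in controls. Its removal gave 1.25 and a limma adjusted p of 0.0762. Both values are larger than the 0.96 obtained with no correction. The slopes were fitted with the genotype difference left in, and were lower in every mutant than in every control. Removing such slopes raises the log2 fold change of any miRNA as rich in G and C as miR-210. The increase therefore follows from the correction and is not separate evidence.

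The miRNAs that low oxygen or HIF is reported to raise in cultured cells formed 1 list. Of the 16 on this list, which holds miR-210, 0 passed in either direction by limma with all libraries. Over all miRNAs 10.9% were called higher (3 miRNAs of these outside the Dlk1-Dio3 region) and 2.11% lower. Of the list, 3 had an unadjusted p below 0.05, and voom on whole reads called 0. Over the 15 others the median log2 value was -0.033, with a range from -0.31 to 0.49, against a median of -0.056 over all miRNAs. Without the libraries numbered 1, 1 of 16 was called higher, miR-210 itself, and 0 lower. Over all miRNAs the shares in that fit were 12.3% (6 miRNAs of these outside the Dlk1-Dio3 region) and 3.86%. miR-107 passed as higher with array weights only, at 0.35 and a limma adjusted p of 0.0341.

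The most abundant of them, miR-21, a miRNA of liver injury and growth, averaged 823040 ± 315640 normalised reads in mutants and 912410 ± 436400 in controls (SD, n = 5 each; log2 fold change -0.12, limma adjusted p = 0.917). Next came miR-26a, at 119910 ± 14190 normalised reads in mutants and 112450 ± 16334 in controls (SD, n = 5 each; log2 fold change 0.096, limma adjusted p = 0.777). The highest values after miR-210 were 0.49 for miR-155, a leukocyte miRNA reported as a HIF1A target, and 0.29 for miR-107, which represses the HIF partner Arnt. Their limma adjusted p values were 0.338 and 0.205. miR-155 was sparse, at 16.5 ± 2.92 normalised reads in mutants and 11.9 ± 4.70 in controls (SD, n = 5 each). In the libraries numbered 1, 9 of the 16 were above the mean of the other 4 in both groups and 5 were below it in both.

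**Figure D4:**
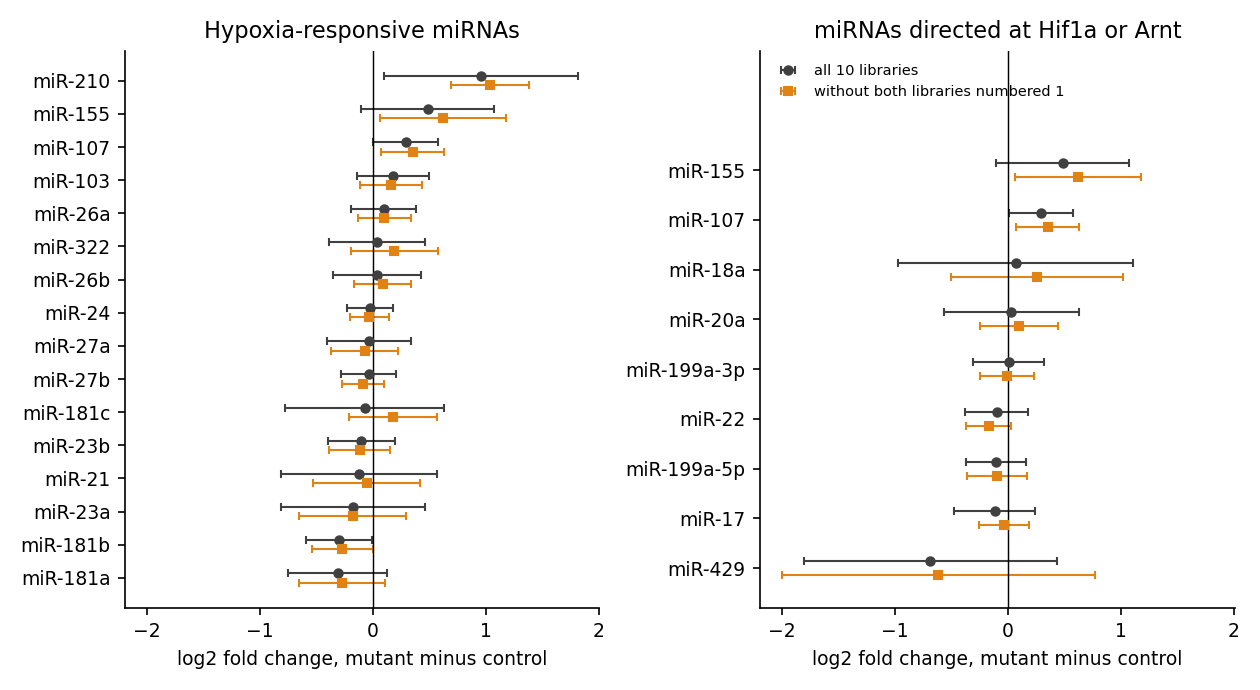
Log2 fold change (Tsc1 mutant minus control, x axis) with its 95% interval for the rows of the hypoxia-responsive list (left) and of the list directed at Hif1a or Arnt (right), with all 10 libraries (circles) and without both libraries numbered 1 (squares). miR-210 is the highest on the left, at 0.96 and 1.04, and its interval without those libraries starts at 0.69.

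miRNAs that repress Hif1a or Arnt, the parts of the HIF dimer, formed the other list. Of 10 names 8 were in the table, as 9 rows, since miR-199a has both arms, and miR-20b and miR-138 were not analysed here. None passed in either direction by limma (0 of 9, with 1 at an unadjusted p below 0.05, which was miR-107), and voom called 0. Over all miRNAs 10.9% were called higher (3 miRNAs of these outside the Dlk1-Dio3 region) and 2.11% lower. A count of 0 among 9 is near these shares. Their median log2 fold change was 0.0095, from -0.69 for miR-429 to 0.49 for miR-155. The most abundant, miR-22, averaged 112820 ± 7341 normalised reads in mutants and 121950 ± 18828 in controls (SD, n = 5 each; log2 fold change -0.10, limma adjusted p = 0.759). The next, miR-199a-3p, was at 0.0095 on the log2 scale, with a limma adjusted p of 0.988. Intervals were wide for sparse members, such as -0.97 to 1.11 for miR-18a.

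Among the 284 other miRNAs, those whose levels followed miR-210 most closely over the 10 libraries were miR-29b, miR-362-3p, miR-34a, miR-3073-3p and miR-137. Pearson's r of log2(value + 1) was 0.93, 0.93, 0.92, 0.88 and 0.88, and Spearman's rho was 0.92, 0.95, 0.92, 0.93 and 0.84. Permutation p, 2-sided over 100000 resamples and adjusted over 284 relations, was 0.0076 for r of miR-29b and of miR-362-3p, 0.0105 for miR-34a and for miR-3073-3p, and 0.0163 for miR-137. The unadjusted permutation p for r was 8e-05, 8e-05, 0.00019, 0.00034 and 0.00103 in the same order. For rho the adjusted permutation p ran from 0.0128 for miR-362-3p to 0.0473 for miR-137. The most opposite were miR-455, with r of -0.98 and rho of -0.95, miR-1198-5p, with -0.92 and -0.94, and miR-139-3p, with -0.92 and -0.95 (permutation adjusted p for r between 0.0076 and 0.0105). miR-455 had 402, 2065, 1531, 1195 and 1668 normalised reads in mutants 1 to 5, against 813, 2858, 5194, 6411 and 3848 in controls 1 to 5. It was lowest in mutant 1 and control 1, the libraries where miR-210 was highest.

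Each relation spans 2 genotypes and the libraries numbered 1, which stood apart. In all, 59 miRNAs passed for r, 23 with r above 0 and 36 below. Without the 2 libraries farthest from the median of miR-210, mutant 1 and control 3, r was 0.91 for miR-29b, 0.87 for miR-362-3p, 0.86 for miR-34a, 0.83 for miR-3073-3p, 0.82 for miR-137 and -0.95 for miR-455, and 0 of 284 passed the adjusted permutation test while 52 had an unadjusted p below 0.05. Without the libraries numbered 1, r was 0.87 for miR-29b, 0.90 for miR-137 and -0.95 for miR-455, over 4 mutants that all lie above 4 controls. A single genotype holds 5 libraries, so no r is given within one. With genotype means removed, 3 of 284 relations passed the adjusted permutation test, 2 of which were among the 59.

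**Figure D5:**
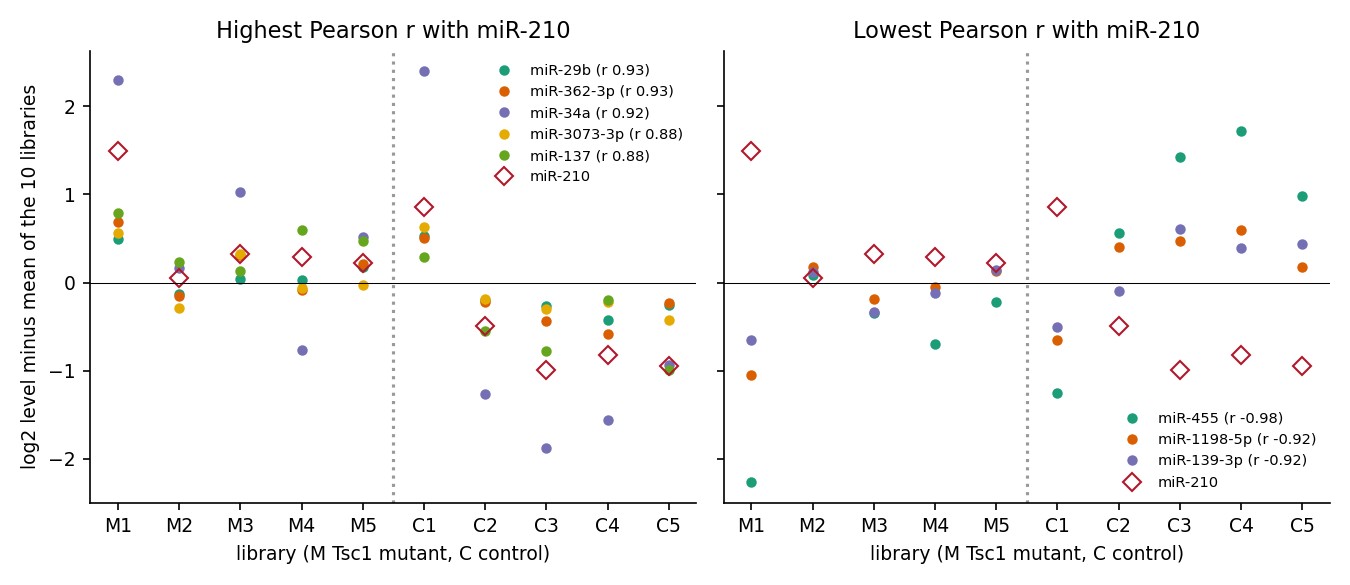
Level of miR-210 (open diamonds) and of the 5 miRNAs with the highest (left) and the 3 with the lowest (right) Pearson r with it, as log2(value + 1) minus the mean of the 10 libraries, for mutants M1 to M5 and controls C1 to C5. Most of the miRNAs on the left are high in M1 and C1 and low in C2 to C5, and miR-455 shows the reverse, with 402 normalised reads in M1 and 6411 in C4.

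The listed miRNAs nearest to miR-210 on its chromosome or by seed did not pass, though those on the chromosome lay far away. The nearest in the table on chromosome 7 were miR-3105-3p, 2788 kb away, at a log2 fold change of 0.053 (limma adjusted p = 0.952), and miR-139, 39746 kb away, whose arms were at -0.34 for 3p and -0.15 for 5p (limma adjusted p of 0.543 and 0.846). miR-218, the nearest by seed, was sparse, at 10.1 ± 5.38 normalised reads in mutants and 18.9 ± 15.4 in controls (SD, n = 5 each; log2 fold change -0.63, limma adjusted p = 0.584).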

How the data were processed

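Total RNA from liver was extracted with TRIzol and sequenced as small RNA libraries on an Illumina HiSeq instrument, per the labels' protocols. The authors deposited 1 normalised signal per miRNA and library: whole reads divided by a library factor, as the values show. DESeq is the tool named in the submitters' processing notes. Not stated in the sources used here are the aligner, miRNA annotation, genome build and filters. Each column's library number was looked up in the sample labels. All values of a library were whole multiples of 1 step within 0.001 (100% of values), so reads per library were recovered by division.

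log2(value + 1) was fitted on genotype with limma 3.58.1 in R 4.3.3, with an intensity trend, over the 285 miRNAs, all above a mean of 5 normalised reads. Benjamini-Hochberg adjustment covered all of them, with a threshold of 0.05. The fit was tested on simulated data, with noise drawn independently for each miRNA and library. No simulated library was made to deviate over many miRNAs as the libraries numbered 1 did, so that setting was not tested. Single values were compared by exact permutation over 252 splits, or 70 with 4 libraries against 4. Correlations used permutation of libraries. Of 285 miRNAs, 248 (87.0%) had a RefSeq hairpin sequence in GRCm38.p6, by name.

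miR-210, the lists and the alternatives were chosen with earlier results of these data known. Named were, by rule, miR-210, called list members, the 2 most abundant of each list, neighbours by level, chromosome and seed, the 5 most and 3 least like miRNAs, and miR-122. The alternatives were other pseudocounts, filters, scalings, weights, a replicate block and left-out libraries. Chosen after the data were seen were voom, GC correction and the term for the libraries numbered 1. The count models planned for the recovered reads were not run, because the table holds too few low values for a separate check of these reads as counts. Voom, the shares and the counting errors used the recovered reads without that check. Figures were drawn with matplotlib 3.10.9.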

Additional observations from a re-analysis of the deposited data

Results flagged for a closer look

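Of 56 sets of 5 libraries examined for a lone high or low value (Dixon's test), 8 had one. Chance flags about 5% of independent sets, but these include miR-210 and miRNAs chosen because they follow it, so the number of such sets is a description only. All 8 were libraries numbered 1. For miR-210 this was Tsc1 mutant 1, at 864 normalised reads, and control 1, at 555. Control 1 was also far above the other controls for miR-130a at 723, miR-29b at 1164, miR-362-3p at 1289, miR-34a at 537 and miR-3073-3p at 58.3 normalised reads. For let-7g it was Tsc1 mutant 1, the lowest mutant, at 289614 normalised reads.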

How the results depend on the processing

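The log2 fold change of miR-210 was above 0 in all 28 alternatives tried and passed the threshold in 8. It passed with array weights at 1.10 (limma adjusted p = 0.00319) and without control replicate 1. It also passed without both libraries numbered 1 at 1.04, without control 2 as well at 1.14, and with a term for the libraries numbered 1 at 0.96. With the hairpin GC slope removed it passed at 1.45 (1.45 also with that term), where the correction by itself raises the value. With 1 library left out the log2 fold change ranged from 0.70 to 1.29, and limma adjusted p from 0.00948 to 0.324. With the replicate number as a block it was 0.96 and passed (limma adjusted p = 0.00412), with 35 miRNAs called higher and 10 lower. The numbers were not taken as pairs, since the labels do not tie them. Deviations from the genotype means correlated between same-numbered libraries at 0.812, 0.155, -0.0206, 0.456 and 0.0477 for numbers 1 to 5. Thus 3 of 5 same-numbered pairs correlated above 0.1. Of the mutants 2 of 5, and of the controls 2 of 5, correlated best with their own number. The share of miRNA reads differed by 22.3 RPM (11.2 to 31.7 with 1 library left out), by 20.6 without both libraries numbered 1 and by 22.9 without control 2 as well. The exact permutation test passed in these last 2, at its smallest p, and without control replicate 1 (p = 0.0159).

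The hypoxia-responsive list had 0 members called higher, 2 with array weights (miR-210 and miR-107) and 1, miR-210, in the 7 other settings where miR-210 passed, so 0 to 1 with 1 library left out. It had 1 called lower, miR-181b, with the GC slope removed and the term. The other list had 1 called higher, miR-107, with array weights. Over all miRNAs, 28 to 34 were called higher and 2 to 10 lower with 1 library left out. Those lower were 23 with array weights, 11 without both libraries numbered 1, 13 without control 2 as well, 17 with the term, and 15 with the term and GC removed. With all libraries 59 miRNAs were related to miR-210, against 3 with genotype means removed (2 of them among the 59). Without the 2 farthest libraries 0 were related, over fewer samples and a narrower range of miR-210. The cause was not tested for any of these changes. The planned count-model tests were not run. The lowest depth, 102 reads of miR-210, limits that value to a counting error of 9.90%.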
